A study of Mus musculus with 32 samples.

Results

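Gdf9 (growth differentiation factor 9, ENSMUSG00000018238.6) and Bmp15 (bone morphogenetic protein 15, ENSMUSG00000023279.7) are the growth factors by which the oocyte acts on the cells around it. They were chosen by name as 2 of the 13175 genes in the count table, and were followed across 32 single mouse oocytes in 4 groups, between oocytes of a group, and as the ratio of Gdf9 to Bmp15 within an oocyte. Immature follicles at the preantral stage, before a fluid cavity forms, had been vitrified (cooled into a glass-like state) or kept fresh, and were then grown in 3D culture (eIVFG). All groups carry the genotype WT. The groups labelled Fresh and Vitrified hold 4 germinal vesicle (GV) oocytes each, fully grown and still arrested before the first meiotic division, taken on day 8. The groups labelled Fresh and hCG, or Vitrified and hCG, hold 12 metaphase II (MII) oocytes each, taken on day 9 after ovulation induced with human chorionic gonadotropin. All oocytes were therefore grown in culture. The labels do not say which mouse or culture well an oocyte came from, and give no strain or age, so oocytes of a group may be related and p-values measure only the spread between these oocytes.

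Both proteins belong to the transforming growth factor beta family, are secreted by the oocyte, and bind the type II receptor BMPR2 on granulosa and cumulus cells. GDF9 then uses the type I receptor TGFBR1 and the transducers SMAD2 and SMAD3, whereas BMP15 uses BMPR1B and the transducers SMAD1, SMAD5 and SMAD9. Mouse follicles that lack Gdf9 stop growing early, and both factors promote the expansion of the cumulus around the ovulating oocyte. Many stored oocyte transcripts gain or lose poly(A) tail during meiotic maturation, in part through the cytoplasmic polyadenylation element in the 3′UTR, and the library kit used here primes on poly(A).

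In GRCm38, Gdf9 lies on the plus strand of chromosome 11 (53431023 to 53437904) and Bmp15 on the minus strand of chromosome X (6314107 to 6320721), and no other gene of the GENCODE M21 annotation overlaps either. The minus-strand gene Uqcrq starts 191 bases before Gdf9 in that annotation and runs away from it. In RefSeq the first bases of Uqcrq and Gdf9 overlap. The 3′ ends of both transcripts are shown because the priming of the libraries starts there. The Gdf9 transcript has a 3′UTR of 360 bases and the Bmp15 transcript one of 1523 bases. In the lines below, read 5′ to 3′ on the strand of the transcript from GENCODE M21, capitals mark the polyadenylation hexamer AATAAA or the cytoplasmic polyadenylation element (CPE) TTTTAT.
Gdf9 hexamer, chr11:53437870-53437899, plus strand: atgtgacggaagAATAAActgttgatggca
Gdf9 CPE, chr11:53437854-53437883, plus strand: agagtgctgtggTTTTATgtgacggaagaa
Bmp15 hexamer, chrX:6314117-6314146, minus strand: ttaatcttaaagAATAAAttttcatttatg
Bmp15 CPE nearest the end, chrX:6314619-6314648, minus strand: gctattgactagTTTTATcacattctctct
The hexamer shown ended 17 bases before the annotated transcript end in Gdf9 and 22 bases before it in Bmp15. The Bmp15 3′UTR held another AATAAA that ended 597 bases before that end. Whether Bmp15 transcripts of these oocytes end near it was not tested. Within the last 40 bases, 76.6% of 12165 3′UTRs held AATAAA or ATTAAA on the transcript strand, so both genes shared this with most. The CPE of Gdf9 ended 33 bases before the transcript end. Bmp15 had 3 such elements, 524, 691 and 1137 bases before the end, and none in the last 100 bases. TTTTAT or TTTTAAT was found in the last 100 bases of 19.9% of the 12165 3′UTRs and anywhere in 62.5% of them. A match of letters is a description of the sequence and not a site of binding.

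Totals ran from 10357543 to 17687247 counts in GV and from 5300203 to 12206497 in MII oocytes, and from 13716 to 90319 of them belonged to Gdf9 and from 6773 to 30008 to Bmp15. All 12 oocyte markers were present in every group, with sums of 14985 to 27533 CPM (counts scaled to a library total of 1000000) in GV and 24939 to 68756 CPM in MII oocytes. The 6 transcripts known to change their tails at maturation, among them Ccnb1, summed to 4204 to 9660 CPM in GV and 20488 to 55804 CPM in MII oocytes. These sums did not overlap, but the levels of Mos did (186 to 1193 CPM in GV and 378 to 3778 CPM in MII oocytes). Of all genes, 12.5% in fresh and 13.2% in vitrified oocytes were higher in MII without overlap. Of 20 markers of cumulus and granulosa cells, 18 were in the table, and their sum ran from 55.8 to 135 CPM in GV oocytes, from 60.8 to 5072 CPM in MII oocytes of fresh follicles and from 69.3 to 798 CPM in those of vitrified ones. Fresh MII replicate 11 (5072 CPM) and vitrified MII replicate 12 (798 CPM) stood above the other MII oocytes, and these were also the oocytes with the lowest Gdf9 of their groups. The 4 theca and stroma markers in the table, of 7, summed to at most 16.9 CPM.

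Both growth factors were among the most abundant oocyte transcripts. Gdf9 took 0.421% ± 0.179 of the counts in fresh and 0.318% ± 0.148 in vitrified GV oocytes (SD, n = 4 each). Its share was 0.524% ± 0.112 among fresh and 0.603% ± 0.102 among vitrified MII oocytes (SD, n = 12 each). Per kilobase of exon, Gdf9 ranked between 5 and 97 of 13040 genes in the single oocytes and was in the first 100 in 32 of 32. Bmp15 ranked between 33 and 238 and was in the first 100 in 20 of 32 oocytes. Its median rank was 180 in fresh and 140 in vitrified GV oocytes, and 70 and 74.5 in fresh and vitrified MII oocytes. Length-scaled levels of Gdf9 were higher than those of Bmp15 in every oocyte, by 1.38 to 10.3 times.

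The Gdf9 level was 3319.7, 2997, 1805 and 4866 CPM in the 4 fresh GV oocytes and 1227, 2315, 3390.2 and 2861 CPM in the 4 vitrified GV oocytes. Its lowest, median and highest levels were 3613, 5431 and 8123 CPM in fresh MII oocytes, and 5026, 6768 and 8545 CPM in those of the vitrified MII group. The GV groups overlapped over most of their range, and so did the MII groups. By group mean the order of Gdf9 levels was vitrified MII (6783 ± 1014 CPM, SD, n = 12), fresh MII (5448 ± 1344, n = 12), fresh GV (3247 ± 1261, n = 4) and vitrified GV (2448 ± 925, n = 4). The neighbours of 1 stage in this order did not differ past the threshold, whereas fresh MII and fresh GV did.

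The Bmp15 level was 1152, 1248, 1003 and 714 CPM in fresh GV and 1339, 995, 1093 and 779.5 CPM in vitrified GV oocytes. In fresh MII oocytes its lowest, median and highest levels were 953, 1774 and 3096 CPM, and in vitrified MII oocytes 1092, 2019 and 4536 CPM. The 8 GV oocytes were within a narrow band, and the MII oocytes began inside it and reached well above it. The order by group mean was vitrified MII (2195 ± 886 CPM, SD, n = 12), fresh MII (1821 ± 593, n = 12), vitrified GV (1052 ± 232, n = 4) and fresh GV (1029 ± 233, n = 4). Here fresh MII and vitrified GV were neighbours. That pair was not tested, and its ranges overlapped.

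**Figure D1:**
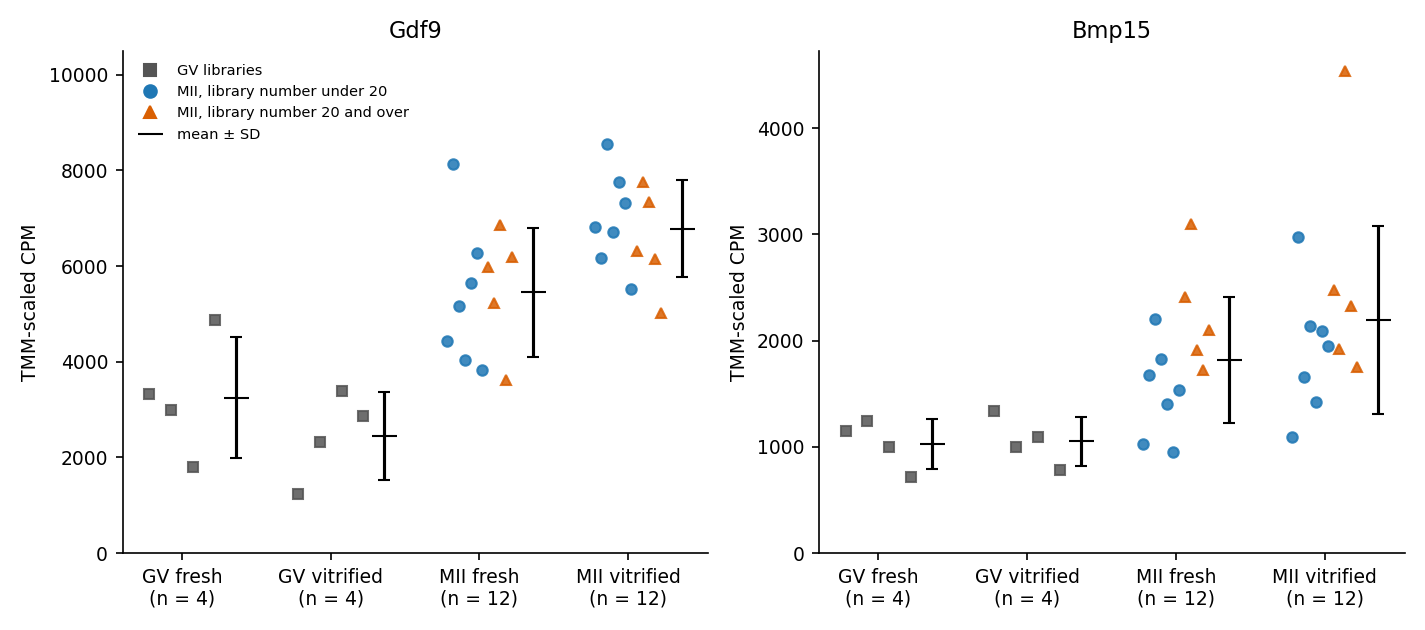
Levels of Gdf9 (left) and Bmp15 (right) in each of 32 oocytes, in CPM after scaling by the trimmed mean of M values, with the group mean and SD beside the points. Circles and triangles separate MII libraries numbered under 20 from those numbered 20 and over, and the Gdf9 points of vitrified GV oocytes (at most 3390.2 CPM) lie below all those of vitrified MII oocytes (at least 5026 CPM).

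Did vitrification of the follicle change either transcript in the GV oocyte? No change of Gdf9 or Bmp15 was detected on day 8. Gdf9 differed by −0.39 ± 0.38 on the log2 scale (SE, vitrified minus fresh, 95% interval −1.21 to 0.42, adjusted p = 1.00), and Bmp15 by 0.05 ± 0.30 (SE, −0.60 to 0.69, adjusted p = 1.00). By edgeR with Benjamini-Hochberg adjustment, 0 of 10831 genes passed (0%) and 180 had an unadjusted p under 0.05, while DESeq2 too called 0. The intervals do not exclude a Gdf9 level more than 2-fold lower, and with 4 oocytes a group 1% of simulated 2-fold changes were found. Single oocytes set the Gdf9 difference: it was −0.15 without fresh replicate 4 (4866 CPM) and −0.18 without vitrified replicate 1 (1227 CPM), but −0.60 without fresh replicate 3 (1805 CPM) or vitrified replicate 3 (3390.2 CPM).

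In the MII oocyte both factors measured higher after vitrification, without passing the threshold. Gdf9 differed by 0.32 ± 0.12 (log2, SE, 95% interval 0.07 to 0.58, unadjusted p = 0.0144, adjusted p = 0.296 by edgeR). Bmp15 differed by 0.28 ± 0.20 (SE, −0.12 to 0.68, adjusted p = 0.563), and by 0.13 without vitrified replicate 10, the oocyte with 4536 CPM. With library totals alone the differences were 0.20 for Gdf9 (adjusted p = 0.452) and 0.14 for Bmp15 (adjusted p = 0.792), where the median over all genes was −0.17 in place of −0.05. The upper bounds of both intervals with the main scaling lie under a doubling. The Gdf9 difference was above that of 88.3% of genes and the Bmp15 difference above that of 84.3%. Over all genes edgeR called 0 of 8428 (0%). An unadjusted p under 0.05 was found for 1053 of them, and 52 were called by DESeq2. Within MII libraries numbered under 20 the Gdf9 difference was 0.39 and within those of 20 and over 0.22, and for Bmp15 it was 0.34 and 0.19. Without the oocytes high in cumulus markers the differences were 0.31 for Gdf9 and 0.30 for Bmp15.

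From GV to MII, Gdf9 and Bmp15 rose in both treatments with the main scaling, the trimmed mean of M values. In fresh oocytes Gdf9 rose by 0.75 ± 0.23 on the log2 scale (SE, 95% interval 0.27 to 1.22, adjusted p = 0.00738 by edgeR) and Bmp15 by 0.82 ± 0.28 (SE, 0.25 to 1.40, adjusted p = 0.0138). In vitrified oocytes Gdf9 rose by 1.47 ± 0.25 (SE, 0.97 to 1.97, adjusted p = 4.11e-06) and Bmp15 by 1.06 ± 0.29 (SE, 0.48 to 1.64, adjusted p = 0.00187). Calls were common at this contrast: 52.6% of 11470 genes passed in fresh oocytes (22.8% as higher in MII and 29.8% as lower) and 57% in vitrified oocytes (23.3% as higher and 33.7% as lower). Against all genes tested, the change of Gdf9 was above that of 69.0% in fresh and 81.1% in vitrified oocytes, and that of Bmp15 above 70.5% and 74.9%. All vitrified MII oocytes had more Gdf9 than all vitrified GV oocytes, as 13.2% of genes did, and the stages overlapped in fresh oocytes. The Bmp15 levels overlapped in both.

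The size of the stage change depended on the scaling, because the median over all genes was itself −0.23 in fresh and −0.34 in vitrified oocytes and moved with it. With library totals alone the medians were −0.61 and −0.81, and Gdf9 changed by 0.31 (adjusted p = 0.277) in fresh and 0.93 in vitrified oocytes, Bmp15 by 0.42 (adjusted p = 0.194) and 0.59 (adjusted p = 0.0620). With scaling factors from the 8129 genes whose MII values were all whole numbers, the medians were 0.46 and 0.42, and the changes were 1.46 and 2.25 for Gdf9 and 1.50 and 1.81 for Bmp15. A scaling shifts all genes of a library alike, so by construction the members move little between scalings relative to the median gene. Gdf9 was 0.97 above it in fresh and 1.81 above it in vitrified oocytes (0.92 and 1.74 with library totals), and Bmp15 1.05 and 1.41 above it (1.02 and 1.40). Of the genes called, 43.4% were higher in MII in fresh and 41% in vitrified oocytes, against 32.5% and 29.3% with library totals and 61.7% and 59.6% with the whole-number genes. Without fresh GV replicate 4, the oocyte with the lowest Bmp15, the Bmp15 change in fresh oocytes was 0.68 (adjusted p = 0.0717). GV libraries carry the numbers 81 to 85, and only MII libraries have fractional values, so stage cannot be told apart from day, library series and processing. A larger amount of transcript and a longer tail cannot be told apart either.

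**Figure D2:**
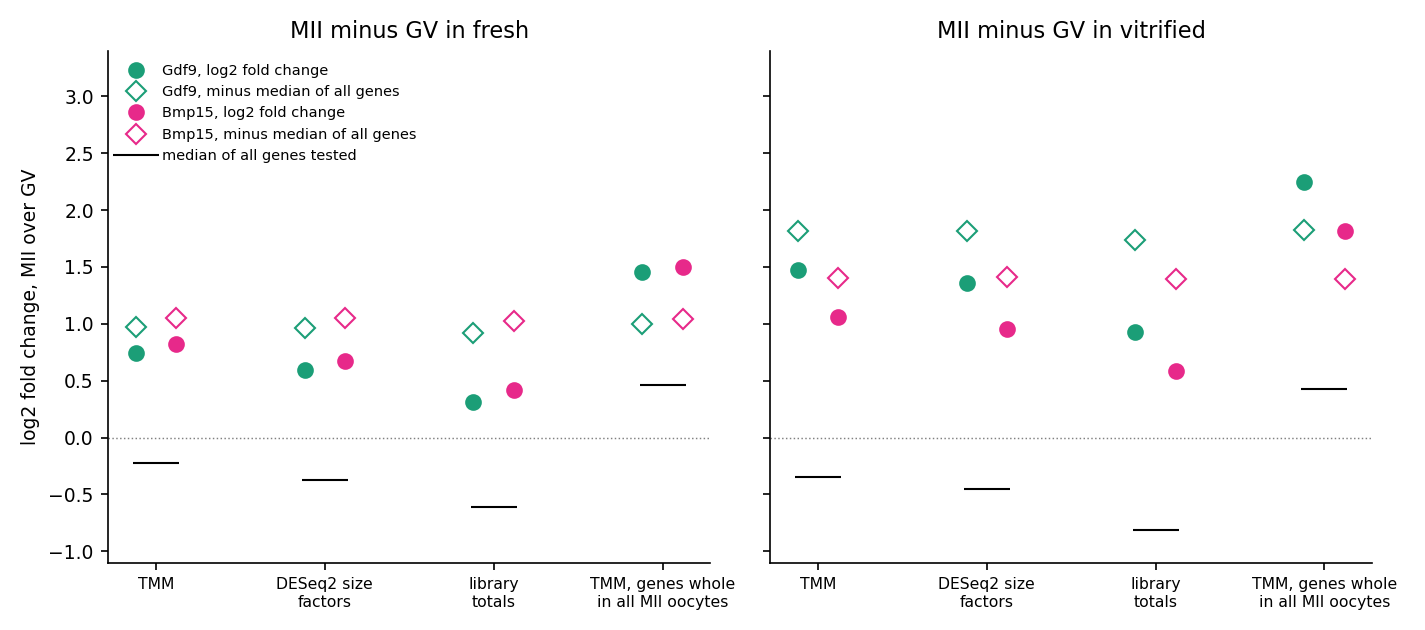
MII minus GV change of Gdf9 and Bmp15 (log2, filled circles) under 4 scalings, in fresh (left) and vitrified oocytes (right), with the median over all genes tested as a bar and each member's change less that median as a diamond. The circles follow the bars from library totals (0.31 for Gdf9 in fresh) to whole-number genes (1.46). The diamonds lie between 0.92 and 1.83 and move little by construction, because a scaling shifts all genes of a library alike.

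Whether vitrification acted differently at the 2 stages was tested by the interaction. The stage change of Gdf9 was larger in vitrified oocytes by 0.72 ± 0.32 (log2, SE, 95% interval 0.08 to 1.37, unadjusted p = 0.0284, adjusted p = 1.00 by edgeR). That of Bmp15 was larger by 0.24 ± 0.38 (SE, −0.53 to 1.01, adjusted p = 1.00). By edgeR 0 of 11470 genes passed (0%). An unadjusted p under 0.05 was found for 467, and 8 were called by DESeq2. Gdf9 was low in vitrified GV replicate 1 and high in fresh GV replicate 4, and without either oocyte in turn the interaction was 0.50 and 0.46. Leaving out each of the 32 oocytes in turn gave 0.46 to 0.92 for Gdf9, so other omissions raised it.

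The ratio of Gdf9 to Bmp15 counts within an oocyte does not depend on how libraries are scaled. It was 2.88, 2.40, 1.80 and 6.82 in fresh GV and 0.917, 2.33, 3.10 and 3.67 in vitrified GV oocytes. Vitrified GV replicate 1 was the lone oocyte of 32 with fewer Gdf9 than Bmp15 counts. The lowest, median and highest ratios were 1.69, 2.73 and 6.59 in fresh MII and 1.62, 3.01 and 6.24 in vitrified MII oocytes. All 4 groups overlapped, and GV oocytes spanned a range as wide as that of 24 MII oocytes. Per kilobase of exon the mean ratio was 5.24 ± 3.42 and 3.77 ± 1.80 in fresh and vitrified GV (SD, n = 4 each) and 4.98 ± 2.15 and 5.28 ± 2.15 in fresh and vitrified MII oocytes (SD, n = 12 each).

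No difference of the ratio passed in 4 two-sided tests. The GV test of vitrification, with 70 relabelings, could not have passed on its own after adjustment over 4. The mean log2 ratio was 1.60 ± 0.83 in fresh GV, 1.15 ± 0.89 in vitrified GV, 1.61 ± 0.58 in fresh MII and 1.70 ± 0.58 in vitrified MII oocytes (SD). Vitrified minus fresh was −0.45 in GV (95% interval −2.89 to 1.03, exact permutation p = 0.514, adjusted p = 0.937) and 0.09 in MII oocytes (−0.41 to 0.58, permutation p = 0.703, adjusted p = 0.937). MII minus GV was 0.01 in fresh (−0.80 to 0.80, exact permutation p = 0.975, adjusted p = 0.975) and 0.55 in vitrified oocytes (−0.27 to 1.38, exact permutation p = 0.171, adjusted p = 0.684). Single GV oocytes moved these values. Without vitrified GV replicate 1 the differences were −0.03 for vitrification in GV oocytes and 0.13 for MII minus GV in vitrified oocytes. Without fresh GV replicate 4 they were −0.06 for vitrification in GV and 0.40 for MII minus GV in fresh oocytes. The vitrification difference in GV oocytes was −0.70 without fresh replicate 3 and −0.69 without vitrified replicate 4, and that in MII oocytes ran from 0.01 to 0.19 without each oocyte in turn. In MII oocytes the interval for vitrification lies under a doubling in either direction, and in GV oocytes it does not exclude a several-fold fall.

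**Figure D3:**
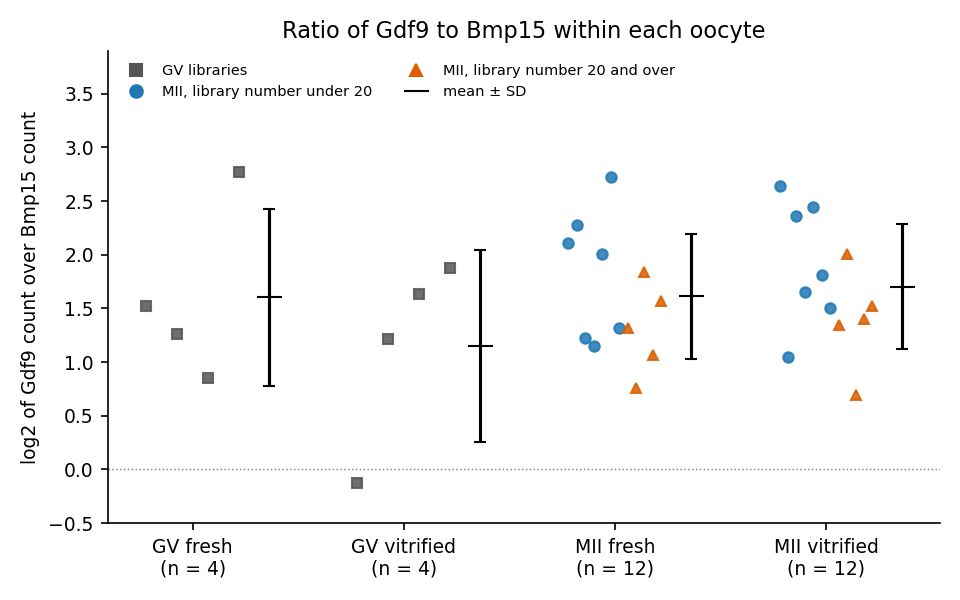
Log2 ratio of the Gdf9 count to the Bmp15 count in each oocyte by group, with the mean and SD beside the points and 0 as the line of equal counts. Fresh MII (1.61 ± 0.58) and vitrified MII oocytes (1.70 ± 0.58) cover the same range, and the lone point under 0 is vitrified GV replicate 1.

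The spread between oocytes differed between the genes and the stages. The SD of log2 CPM of Gdf9 was 0.59 in fresh GV, 0.64 in vitrified GV, 0.36 in fresh MII and 0.22 in vitrified MII oocytes. That of Bmp15 was 0.36, 0.32, 0.48 and 0.52 in the same order. So Gdf9 varied more than Bmp15 among GV oocytes and less among MII oocytes, as a description with no test. Among genes that averaged 4 or more in log2 CPM the median SD was 0.51, 0.50, 0.49 and 0.46. Of these genes, 61.4% varied less than Gdf9 in fresh GV, 66.0% in vitrified GV, 22.2% in fresh MII and 3.58% in vitrified MII oocytes. For Bmp15 the share was 25.8% in vitrified GV and slightly lower in fresh GV oocytes, 49.4% in fresh MII and 63.0% in vitrified MII oocytes. Among genes averaging 9 or more, a threshold well below the level of Gdf9, 50.6% of 312 varied less than Gdf9 in fresh MII and 9.09% of 352 in vitrified MII oocytes, and 80.1% and 82.1% varied less than Bmp15. Vitrified and fresh oocytes were compared in 6 permutation tests of the mean absolute deviation from the group median, with 3 in each stage. The GV tests, with 70 relabelings, could not have passed on their own after adjustment over 6, and of the MII tests 0 passed. For Gdf9 in MII oocytes that deviation was 0.29 in fresh and 0.17 in vitrified oocytes (difference −0.11, permutation p = 0.194, adjusted p = 0.974).

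The levels of Gdf9 and Bmp15 showed little correlation between MII oocytes with the main scaling. Across MII oocytes Pearson's r of their log2 CPM was 0.08 in fresh (Spearman's rho 0.04, n = 12) and −0.08 in vitrified oocytes (rho −0.30, n = 12). Over all 24 MII oocytes, with treatment means removed, r was 0.01 and rho −0.05, and r was 0.03 without the 2 oocytes farthest from the median of Gdf9. With the means of the library series removed too, r was 0.02, but −0.28 with library totals (−0.41 without the 2 farthest). Among the 8 GV oocytes r was −0.57 (rho −0.36), and it turned to 0.29 without the 2 farthest. These values are descriptions, and both levels of an oocyte share its library size. Ordered by likeness to Gdf9 over the 24 MII oocytes, Bmp15 was number 2811 of 4429 genes.

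**Figure D4:**
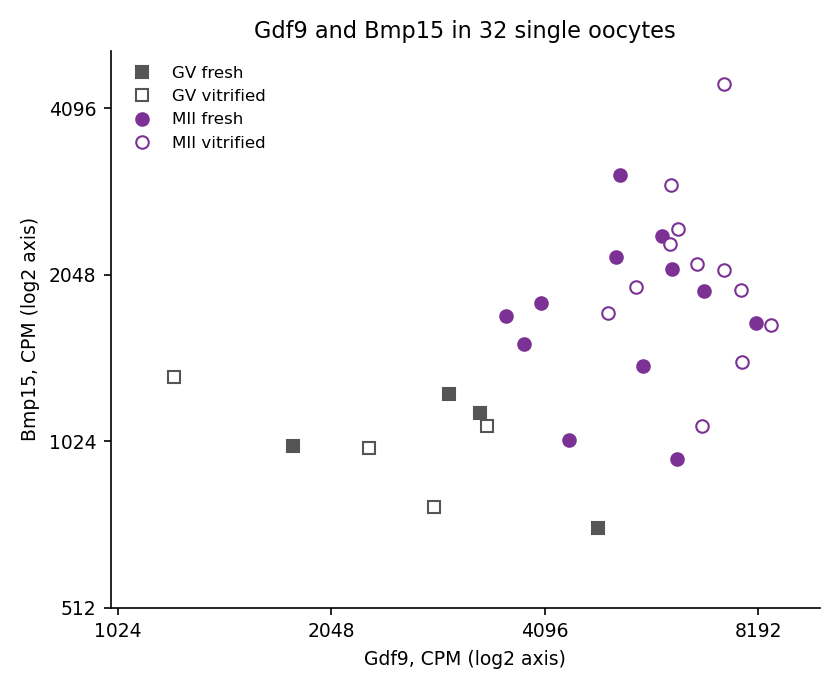
Bmp15 against Gdf9 in 32 oocytes, both in CPM on log2 axes, with squares for GV and circles for MII oocytes and open symbols for vitrified follicles. MII oocytes reach farther to the upper right than GV oocytes and overlap them in part, and within the MII groups the points show no slope (r = 0.08 in fresh and −0.08 in vitrified oocytes).

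Different genes ran closest to each member. By Pearson's r of log2 CPM over 24 MII oocytes with treatment means removed, the genes most like Gdf9 were Egf (0.74), Exoc1 (0.73), Ehf (0.68), Prmt2 (0.66) and Abcc4 (0.66), and the least alike were Vapa (−0.65) and Fdft1 (−0.57). Genes most like Bmp15 included Ms4a1 (0.78), Aass (0.77), Dcun1d1 (0.75) and Smc4 (0.74), and the least alike were Rtkn2 (−0.73) and Triobp (−0.69). With the means of the library series removed as well, Egf reached 0.81 with Gdf9, and Smc4 fell to 0.63 with Bmp15.

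Bmp15 measured higher in the MII libraries of higher number, without passing the threshold. In MII libraries numbered under 20 (14 oocytes) Bmp15 had 1711 ± 546 CPM, and in those numbered 20 and over (10 oocytes) 2424 ± 849 CPM (SD). The difference was 0.51 ± 0.17 on the log2 scale (SE, 95% interval 0.15 to 0.86, unadjusted p = 0.00694, adjusted p = 0.0810 by edgeR), a contrast at which 6.04% of 8428 genes were called, 2.46% as higher. Gdf9 had 6167 ± 1489 and 6044 ± 1200.2 CPM (SD), a difference of −0.02 ± 0.13 (SE, adjusted p = 0.936). The ratio of counts was 3.94 ± 1.52 in the first and 2.65 ± 0.76 in the second series (SD). Both treatments hold 7 oocytes of the first and 5 of the second series, and the labels do not say what the numbers stand for. This comparison was chosen after seeing the data.

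Among the 8 GV oocytes Gdf9 was ordered almost inversely to Ccnb1, the gene of cyclin B1, whose stored transcript gains tail and is translated as meiosis resumes. Ccnb1 measured 711, 799, 1475 and 384 CPM in the 4 fresh and 2442, 1208, 453 and 758 CPM in the 4 vitrified GV oocytes. The oocyte with the most Gdf9, fresh replicate 4, had the least Ccnb1, and the oocyte with the least Gdf9, vitrified replicate 1, had the most. Pearson's r of log2 CPM was −0.97 over 8 oocytes (Spearman's rho −0.98), −0.93 without the 2 farthest oocytes and −0.98 with treatment means removed. The other 5 transcripts known to change their tails did not all share this order. With Gdf9, r was −0.97 for Cnot7, a subunit of a deadenylase, −0.73 for Tpx2, −0.53 for Btg4 and −0.18 for Plat. Without the 2 farthest oocytes these values were −0.93, −0.61, −0.98 and −0.87 in the same order, so those of Btg4 and Plat depended on 2 oocytes. For Mos, the kinase that holds the MII arrest, r was 0.76, and −0.08 without the 2 farthest oocytes. Bmp15 had an r of 0.54 with Ccnb1, and 0.22 without the 2 oocytes farthest from the median of Bmp15. Among 24 MII oocytes r between Gdf9 and Ccnb1 was 0.28.

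Gdf9 was not alone with this order in GV oocytes. Of 5493 genes, 271 (4.93%) had an r under −0.9 with Gdf9 and 170 (3.09%) one over 0.9, and Ccnb1 was the 15th from the lowest. Total counts moved with it too: r was 0.72 between Gdf9 and the total (Spearman's rho 0.50) and −0.68 between Ccnb1 and the total (rho −0.40). Without the 2 oocytes farthest from the median of the gene, r was 0.91 for Gdf9 and −0.72 for Ccnb1. The 2 oocytes lowest in Gdf9, vitrified replicate 1 and fresh replicate 3, had the smallest GV totals (11159677 and 10357543). They also had the lowest TMM scaling factors of the GV oocytes (1.00 and 1.05). Vitrified replicate 1 had the fewest genes above 0 among GV oocytes (10708). With library totals in place of scaled sizes r between Gdf9 and Ccnb1 was −0.92. The part of depth and of library composition in this order was not tested. The gene Ccnb1 was singled out after its values were seen, and the correlations are given without a test.

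**Figure D5:**
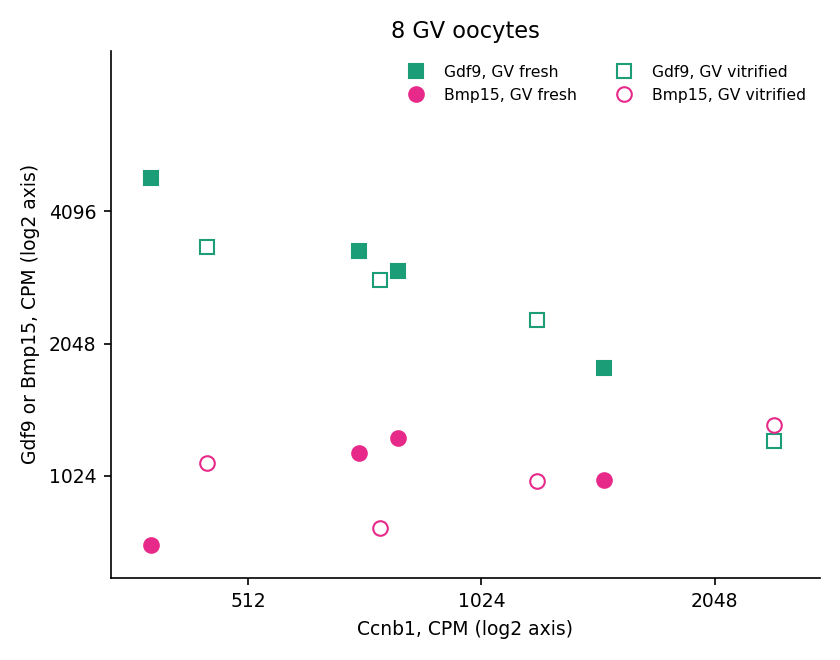
Gdf9 (squares) and Bmp15 (circles) against Ccnb1 in the 8 GV oocytes, all in CPM on log2 axes, with open symbols for vitrified follicles. Gdf9 falls from 4866 to 1227 CPM as Ccnb1 goes from 384 to 2442 CPM (r = −0.97). Bmp15 has an r of 0.54 with Ccnb1, and 0.22 without the 2 oocytes farthest from the median of Bmp15.

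Other genes of the pathway were read from 7 lists. In both comparisons of vitrified with fresh oocytes edgeR called 0 members of every list, as it called 0 of all genes. The stage comparisons called members in both directions, and the counts below use the main scaling, against a median over all genes of −0.23 in fresh and −0.34 in vitrified oocytes. With other scalings the sign of a list median turned for ligands in fresh (0.46 with the whole-number genes), transcription factors in both (0.27 and 0.52 with the same genes), and inhibitors (−0.23) and follicle cell targets (−0.067) in vitrified oocytes with library totals.

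Among other ligands and follicle growth factors, 1 of 11 tested rose and 3 fell in fresh, and 1 rose and 4 fell in vitrified oocytes (medians −0.21 and −1.43). Over all genes 22.8% rose and 29.8% fell in fresh and 23.3% and 33.7% in vitrified oocytes, so the ligands that fell were near the share of all genes. Fgf8, which acts with BMP15 on cumulus metabolism, measured 194 ± 48.2 and 206 ± 129 CPM in fresh and vitrified GV oocytes (SD, n = 4 each) and 2.37 ± 1.53 and 2.20 ± 0.84 CPM in the MII groups (SD, n = 12 each). Its log2 changes were −6.34 and −6.55. Tgfb2, a ligand of the same family, rose from 537 ± 124 to 1142 ± 266 CPM in fresh and from 527 ± 118 to 1273 ± 382 CPM in vitrified oocytes (SD), by 1.09 ± 0.23 and 1.27 ± 0.24 (log2, SE). So Fgf8 moved against Gdf9 and Bmp15, and Tgfb2 moved the same way. Fgf10 was also called lower in both treatments, with log2 changes of −2.67 and −2.86, but its levels were low and the stages overlapped. In fresh oocytes it ran from 0.27 to 47.6 CPM in GV and from 1.10 to 5.41 CPM in MII. In vitrified oocytes it ran from 1.99 to 38.0 CPM in GV and from 0.42 to 5.35 CPM in MII.

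Of 10 receptors tested, 4 rose and 0 fell in fresh and 4 rose and 1 fell in vitrified oocytes (medians 0.73 and 0.63), where of all genes 22.8% and 23.3% rose and 29.8% and 33.7% fell. Bmpr2, the type II receptor of both factors, was at 13.1 ± 5.72 and 11.6 ± 6.09 CPM in the GV and 64.2 ± 15.7 and 54.9 ± 14.1 CPM in the MII groups (SD), a rise of 2.30 ± 0.32 and 2.24 ± 0.32 (log2, SE). Kit, the receptor by which the oocyte responds to kit ligand of granulosa cells, rose by 2.01 and 1.53, and the activin receptor Acvr1b by 1.87 and 2.85. Bmpr1b, the type I receptor of BMP15, rose by 0.93 in fresh oocytes (adjusted p = 0.00456), and with library totals it was at 0.53 (adjusted p = 0.122). Bmpr1a fell by 0.93 in vitrified oocytes, and with the whole-number genes it was at −0.19 (adjusted p = 0.670).

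Of 5 transducers tested, 3 rose and 0 fell in fresh, and 2 rose and 1 fell in vitrified oocytes (medians 1.04 and 0.70), beside the same shares of all genes (22.8% and 23.3% higher, 29.8% and 33.7% lower). Smad1, of the BMP15 branch, rose by 1.81 and 1.87, and the common partner Smad4 by 1.48 and 1.52. Smad2, of the GDF9 branch, rose by 1.04 in fresh oocytes (adjusted p = 0.0367), and with library totals was at 0.63 (adjusted p = 0.175). Smad3, of the same branch, measured −0.24 in fresh oocytes (adjusted p = 0.311) and fell by 0.56 in vitrified oocytes, and the sign turned with the whole-number genes (0.46 and 0.20).

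Of 9 inhibitors tested, 1 rose and 1 fell in fresh and 2 rose and 1 fell in vitrified oocytes (medians 0.50 and 0.29), fewer than the 52.6% and 57% of all genes called in either direction. Fstl3, which binds activins, measured 0.27 ± 0.30 and 0.07 ± 0.12 CPM in the GV and 8.30 ± 4.12 and 11.0 ± 2.97 CPM in the MII groups (SD). Ski, a repressor of SMAD transcription, had log2 changes of −1.82 and −1.91, and Twsg1, which binds BMPs, rose by 2.08 in vitrified oocytes. Of 4 tested proteases of the kind that cleaves the precursors of both factors, 1 rose in fresh and 0 in vitrified oocytes, and 0 fell (medians 2.34 and 1.22), with 22.8% and 23.3% of all genes higher. The riser was Pcsk7, at 3.17 ± 1.26 (log2, SE, adjusted p = 0.0337), and 2.80 with library totals (adjusted p = 0.0642). Furin measured 11.5 ± 7.72 and 11.0 ± 10.2 CPM in the GV and 34.5 ± 28.1 and 29.4 ± 27.9 CPM in the MII groups (SD), a wide spread between oocytes.

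Transcription factors of the growing oocyte changed in both directions. Of 8 tested, 3 rose and 4 fell in fresh, and 2 rose and 3 fell in vitrified oocytes (medians −0.42 and −0.26). Of all genes 22.8% rose and 29.8% fell in fresh, and in vitrified oocytes the counts were near the shares of all genes (23.3% and 33.7%). Nobox, known to bind the promoters of both growth factor genes, measured 328 ± 24.5 and 323 ± 107 CPM in the GV and 103 ± 39.4 and 79.0 ± 27.2 CPM in the MII groups (SD), log2 changes of −1.68 and −2.03. Figla went from 65.6 ± 24.8 and 48.9 ± 8.11 CPM to 0.76 ± 0.63 and 0.56 ± 0.64 CPM (SD), and Lhx8 had log2 changes of −1.92 and −1.82. Foxo3, which holds small follicles at rest, rose by 2.72 and 3.25. Figla, Lhx8 and Nobox were called lower, and Foxo3 higher, under all 4 scalings in both treatments. So were Fgf8, Fgf10 and Ski (lower) and Tgfb2, Bmpr2, Kit, Acvr1b, Smad1, Smad4 and Fstl3 (higher). Tnfaip6, a follicle cell target described below, was also called higher under all of them.

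Genes that GDF9 and BMP15 induce in cumulus and granulosa cells are read beside the cumulus markers, of which Has2, Ptgs2, Ptx3, Tnfaip6, Areg, Ereg and Fst are also members. Of 7 tested, 1 rose in fresh (Tnfaip6) and 2 in vitrified oocytes (Tnfaip6 and Ptgs2), and 0 fell (medians 2.56 and 0.38), with 22.8% and 23.3% of all genes higher. Tnfaip6, a matrix protein of the expanding cumulus, had a median of 0 CPM and a highest value of 441 CPM among fresh and of 104 CPM among vitrified MII oocytes. Ptgs2, the prostaglandin synthase of ovulation, reached 68.0 and 25.8 CPM with medians of 0 and 0.10 CPM. Without the 2 MII oocytes high in cumulus markers, 4 members were tested, with 0 higher and 1 lower in each treatment (Grem1 in fresh and Pfkp in vitrified). Both medians of these members were below 0. Of all 11262 genes tested without the same 2 oocytes, 3639 were lower in fresh and 3977 in vitrified oocytes. The medians over all genes were below 0 there too (−0.33 and −0.39). Gdf9 and Bmp15 changed without the 2 oocytes high in cumulus markers by 0.79 and 0.83 in fresh and by 1.51 and 1.09 in vitrified oocytes.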

How the data were processed

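RNA of 32 single oocytes was measured with a SMART-Seq v4 low-input kit, per the labels. The submitters' processing notes name HISAT2, featureCounts and the build mm10, with no version or setting. The unit was read from the deposited values: those of GV oocytes are whole counts, and 11.7% to 19.7% of those of MII oocytes are not whole and resemble expected counts. Nothing in the labels says what the authors did to make them fractional. Tests had been planned for counts, so the deposited expected counts were rounded (Gdf9 was not whole in 2 of 24 MII oocytes, Bmp15 in 0). Of 13202 entries 27 repeats were removed, leaving 13175 genes, each with a total of at least 10 over MII oocytes, and 376 were at 0 in all GV oocytes.

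Genes were filtered with filterByExpr (minimum 10 counts, 15 in total), scaled with TMM (trimmed mean of M values) and tested with the two-sided quasi-likelihood F test of edgeR 4.0.16 in R 4.3.3, with Benjamini-Hochberg adjustment over all genes at 0.05. The GV and MII comparisons of vitrified with fresh oocytes used the oocytes of that stage, and the stage and interaction contrasts 1 fit of all 32 oocytes. CPM values are counts scaled to 1000000 with the TMM-scaled library sizes of the fit of all oocytes. Log2 ratios and spreads were compared by permutation of oocytes (all relabelings, or 100000 for 12 against 12). Correlations of the members with each other, with stage markers and with total counts use log2 CPM with no prior count. The likeness order, scaled in the fit of MII oocytes, and the counts of genes by r with Gdf9 in GV oocytes use a prior count of 2. Levels per kilobase use merged exons of GENCODE M21 on GRCm38 (13040 genes matched), which is also the source of positions and sequences. Named genes are Gdf9 and Bmp15, up to 4 members per list and comparison with the smallest p, and the 5 most and 2 least alike genes that average 4 or more in log2 CPM, of which 1 is not reported here. Ccnb1 and Cnot7 in GV oocytes, and list members named as called, were added after their values were seen. The genes, lists and rules were chosen with earlier results of these data known. Alternatives were DESeq2 1.42.0, 3 other scalings, 2 other filters, unrounded values, a replicate block, the library series and leaving out each oocyte. Leaving out oocytes high in cumulus markers (over 3 times the MII median) and the comparison of library series were chosen after seeing the data.

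On simulated counts the edgeR steps recovered 1% of 2-fold and 36% of 4-fold changes in the GV comparison (10513 genes), 66% and 97% in the MII comparison (8204 genes) and 17% and 66% in the stage comparison of fresh oocytes (11190 genes). Highest similarity between any 2 oocytes was r = 0.977, and no library was taken as a repeat.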

Additional observations from a re-analysis of the deposited data

How the results depend on the processing

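Of the values recomputed under the alternatives, 597 were classed as the same, 12 reversed, 12 counts of genes moved and 6 lost a call. A fold change, ratio or spread was classed as the same if its sign and call were kept, whatever its size. So Gdf9 in GV oocytes, not called, stayed in that class from −0.60 to −0.15 over 8 omissions. Fold changes of a stage contrast also count omissions of oocytes of the other treatment. The number 597 is therefore no measure of how stable the sizes were. The class of the same also holds counts of genes, and correlations of Gdf9 with Bmp15 whose sign turned with library totals. For fresh MII oocytes r was 0.08 with the main scaling and −0.045 with totals. With treatment means removed over all MII oocytes these values were 0.01 and −0.042. The sign was kept in vitrified MII oocytes (−0.08 and −0.039). With library totals alone, MII minus GV lost its call for Gdf9 in fresh (0.31) and for Bmp15 in fresh (0.42) and vitrified oocytes (0.59), Bmp15 in GV oocytes turned to −0.026, and 1 gene was called in MII oocytes. Within MII libraries numbered under 20, Bmp15 in fresh oocytes was at 0.59 for MII minus GV (adjusted p = 0.0686), and with those of 20 and over the log2 ratio for MII minus GV in fresh oocytes turned to −0.29. In the MII comparison DESeq2 called 52 genes, the stricter filter (CPM of at least 10) 1 and the fit of all 32 oocytes 1. For the interaction DESeq2 size factors gave 3, DESeq2 itself 8 and the stricter filter 2 genes. The cause of these moves was not tested. Leaving out each oocyte in turn gave −0.24 to 0.40 for the log2 ratio of MII minus GV in fresh oocytes, −0.10 to 0.17 for Bmp15 in GV oocytes, 0 to 1 genes in the MII comparison, 0.68 to 0.93 for Bmp15 of MII minus GV in fresh oocytes and 0 to 4 genes for the interaction. Replicate numbers showed no clear pairing of oocytes. Same-numbered deviations correlated at −0.59 to 0.45 in 4 GV pairs and −0.50 to 0.47 in 12 MII pairs, with 2 and 6 over 0.1. At each stage 1 fresh oocyte was closest to its own number. These pairs follow the replicate number and not the library number, and the values cannot exclude shared mice or cultures. With the replicate block, Bmp15 of MII minus GV in fresh oocytes was at 0.68 (adjusted p = 0.0603), Gdf9 at 0.77, and 5427 genes in place of 6028 were called. It gave −0.41 for Gdf9 in GV and 0.35 in MII oocytes, and changed no other call. At 4 oocytes a group, the median 95% interval of a gene in the GV comparison reached 1.13 to either side, against 0.55 in the MII comparison, so moderate changes in GV oocytes were not detectable at this depth of replication.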
